A study of Mus musculus with 36 samples.

Results

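Femoral bone marrow MSCs (fBM-MSCs), cultured mesenchymal stem cells grown from the marrow of the mouse femur, were set against MSCs from the 3 other tissues of the series. The RNA-seq data analysed here comprised 3 fBM-MSC libraries of 11, beside 2 of vertebral bone marrow MSCs (vBM-MSCs), 3 of adipose tissue derived MSCs (A-MSCs) and 3 of lung derived MSCs (P-MSCs). A gene was taken as a member of the comparison when its TPM, RSEM's length-scaled measure of transcript abundance, was higher in all 3 fBM-MSC libraries than in each of the 8 others, or lower in all 3 than in each of the 8. Of the 24411 genes listed, 1066 were higher in this sense and 1148 lower. With TMM-normalized CPM in place of TPM the numbers were 1287 and 1004, so that the higher members were then the more numerous. The donors of all 4 groups were C57BL6/J mice aged 8 weeks, for which the sources name no transgene, deletion or treatment. The tissues were taken from the same 3 mice, but the sources used here do not say which libraries come from 1 mouse. Femur and vertebra were crushed, whereas lung and adipose tissue were minced and digested with collagenase, so that this handling step and the split between marrow and other tissues cannot be told apart. All MSCs were seeded on collagen I in MesenCult medium to which MesenPure and a Rock inhibitor had been added. They were used within 3 passages, so the values describe cultured cells and not cells in the tissue. In bulk RNA, fewer cells of a kind and less RNA per cell cannot be told apart.

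MSCs are plastic-adherent stromal cells that can be driven to bone, cartilage or fat in culture. Limb skeleton and vertebrae arise from different mesoderm, the lateral plate and the somites, and cells of the body keep a record of their position in the Hox genes, which lie in 4 chromosomal clusters and are switched on in order from the 3′ end (low paralogue numbers, anterior) to the 5′ end (high numbers, posterior). In the hindlimb, Pitx1 and Tbx4 set hindlimb identity, Shox2 acts in the proximal skeleton and the posterior Hox genes pattern its segments. Osteoblasts form under Runx2 and Sp7 and secrete a matrix of collagen I and of mineral-binding proteins such as osteopontin, bone sialoprotein and osteocalcin. Contractile genes of smooth muscle, such as Acta2, are driven by serum response factor at CArG boxes and are widely expressed by cultured stromal cells.

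The libraries held between 19569650 and 40517739 expected counts, replicate 1 of the fBM-MSCs being the shallowest. Pearson's r of log2(TPM + 1), taken across genes, was 0.983 to 0.991 between the fBM-MSC libraries, 0.964 to 0.981 with vBM-MSCs, 0.952 to 0.964 with A-MSCs and 0.946 to 0.957 with P-MSCs. The labelled cell type was checked against the surface markers used in the study. Itgb1, encoding CD29, ranged from 672 to 984 TPM in fBM-MSCs and Cd44 from 229 to 611. Ly6a, encoding Sca-1, ranged from 256 to 480.3 and Vcam1, encoding CD106, from 29.3 to 46.9, so each of these 4 positive markers was present in each fBM-MSC library. Of the 4, 1 was called higher (Ly6a, log2 fold change 1.18) and 1 lower (Vcam1, -0.78). Against vBM-MSCs alone, Ly6a was called lower (-0.95, adjusted p = 0.03). The negative markers Ptprc (CD45) and Pecam1 (CD31) reached at most 0.02 and 0.03 TPM in fBM-MSCs and were not tested. The remaining negative marker, CD34, was present as a transcript. The study scored these markers as surface protein by flow cytometry, an unlike measure, and reported its MSCs as negative for CD34. Cd34 was measured at 79.2, 72.7 and 10.2 TPM in fBM-MSCs, replicates 1 to 3, and at 0.91 to 7.46 TPM in the other libraries. Its groups did not overlap (log2 fold change 4.22 ± 0.46 (SE), adjusted p = 4.63e-05), although replicate 3 was far lower than replicates 1 and 2, and nearest to the vBM-MSC libraries with 7.33 and 7.46 TPM.

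Of the members, 947 of the higher and 1137 of the lower passed the filter on low counts, at least 2 libraries with a CPM of 1 or more, and were tested. The remaining 119 and 11 were too low. Among all 12509 genes tested, non-overlap in these directions was found in 7.57% and 9.09%. In the main contrast, which sets fBM-MSCs against the mean of the 3 other tissue means on the log scale, edgeR's quasi-likelihood test called 21.0% of all tested genes higher and 18.7% lower. These shares over all tested genes are to be set beside the counts of each gene list below. The test called 901 of the 947 and 1074 of the 1137 members. The same libraries chose the members, so nothing is read from these counts. The p-values measure the spread between these libraries only, and the fitted log2 fold change of a gene without a count in a whole tissue depends on the prior count of the fit and is no bound. The median log2 fold change was 1.22 over the tested higher members and -0.78 over the lower, beside 0.03 over all tested genes. Most gaps were narrow. The distance on log2(TPM + 1) between the nearest fBM-MSC library and the nearest other library had a median of 0.17 in both directions, and was at least 1 in 51 higher and 44 lower members. At the edge of the rule, Mfsd11 was just inside the higher members with 32.3, 35.7 and 33.7 TPM in fBM-MSCs against a highest other value of 32.3, whereas Tsc2 was just outside, with a lowest fBM-MSC value of 17.85 TPM against 17.88 in a vBM-MSC library. Eef1g was just inside the lower members, its highest fBM-MSC value of 790.1 TPM and lowest other value of 790.1 being equal as printed. Hdac1 was just outside, at 68.59 TPM in its highest fBM-MSC library and 68.58 in an A-MSC library.

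**Figure D1:**
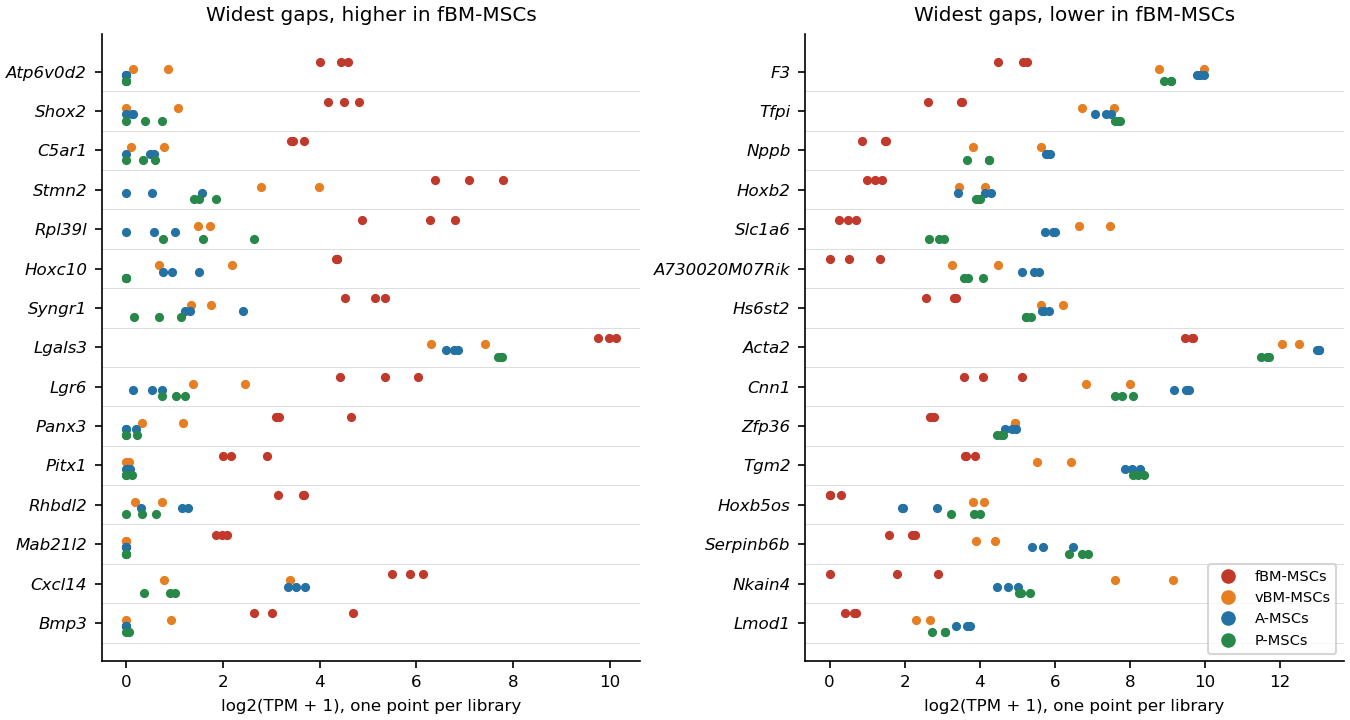
The 15 genes with the widest gap in each direction, shown as log2(TPM + 1) on the horizontal axis with 1 point per library, coloured by tissue. Within each gene the 3 fBM-MSC points lie on 1 side of all 8 other points, from Atp6v0d2 (gap 3.13) to Bmp3 (1.73) among the higher genes and from F3 (3.51) to Lmod1 (1.58) among the lower.

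The tissue nearest to fBM-MSCs was most often vertebral marrow. For 66.4% of the tested higher members the highest of the 8 other libraries was a vBM-MSC library, against 15.5% for A-MSCs and 18.1% for P-MSCs, and for the lower members the lowest other library was a vBM-MSC one in 56.0%, an A-MSC one in 26.1% and a P-MSC one in 17.9%. The 2 vBM-MSC libraries were unequal in this. Replicate 2 was the nearest library for 489 higher members and replicate 1 for 140, whereas for the lower members replicate 1 was nearest for 343 and replicate 2 for 294. The number of higher members rests on the same libraries, since it rose from 1066 to 1696 without replicate 2 of the vBM-MSCs and to 1833 without replicate 1 of the fBM-MSCs, which was the lowest fBM-MSC library in 486 of the 947.

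The 4 genes given as marks of fBM-MSCs were higher in every fBM-MSC library. Shox2 (chr3:66971723-66981771 on GRCm38, 5 exons), a homeobox factor of the proximal limb skeleton, was measured at 17.1, 21.6 and 27.1 TPM in fBM-MSCs. It was at 0 and 1.1 TPM in vBM-MSCs, 0.10, 0.09 and 0 in A-MSCs and 0, 0.31 and 0.66 in P-MSCs. No library of another tissue came within a factor of 10 of the lowest fBM-MSC value (log2 fold change 7.02 ± 0.75 (SE), adjusted p = 4.08e-05). Pitx1 (chr13:55825054-55831425, 3 exons), the homeobox factor of hindlimb identity, was low but present at 3.46, 3.0 and 6.5 TPM in fBM-MSCs. Its highest value in the 8 other libraries was 0.09 TPM, and the groups lay far apart (log2 fold change 7.34 ± 0.84 (SE), adjusted p = 6.38e-05). Slc5a7 (chr17:54273590-54299034, 9 exons), the high-affinity choline transporter of cholinergic nerve endings, stood at 0.97, 13.9 and 2.63 TPM in fBM-MSCs, the spread between replicates being over 10-fold. Outside the fBM-MSCs a single vBM-MSC library held 0.09 TPM and the 7 other libraries were at 0. The gap of Slc5a7 on log2(TPM + 1) was 0.85, and against A-MSCs and P-MSCs it was at least 802-fold and 779-fold higher, taking 3 counts over the libraries of the tissue as the floor, and at least 262-fold and 254-fold higher without replicate 2 of the fBM-MSCs.

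Mab21l2 (chr3:86546050-86548283, 1 exon), a gene of the Mab-21 family known from eye and body wall development, was measured at 3.24, 2.96 and 2.6 TPM in fBM-MSCs and had no count in any other library. It was at least 109-fold higher than in vBM-MSCs, 180.0-fold than in A-MSCs and 175-fold than in P-MSCs (adjusted p = 0.000111 in the main contrast). Mab21l2 lies on the opposite strand within Lrba, a large gene that was itself a member at 0.50, 0.46 and 0.27 TPM in fBM-MSCs and at most 0.17 elsewhere. The libraries are not stranded, so that reads of the 2 genes cannot be told apart where they overlap. Its promoter also differed in the ATAC-seq lists. Of the 4 lists, the fBM-MSC list alone held summits within 1 kb of the Mab21l2 start, 551 and 11 bases before it, with fold enrichments of 6.99 and 9.20. The 250 bases before the start (chr3:86548284-86548533 of GRCm38, minus strand, RefSeq) are shown because the nearer summit lies at their 3′ end, with the match to the RUNX core in capitals.
Mab21l2: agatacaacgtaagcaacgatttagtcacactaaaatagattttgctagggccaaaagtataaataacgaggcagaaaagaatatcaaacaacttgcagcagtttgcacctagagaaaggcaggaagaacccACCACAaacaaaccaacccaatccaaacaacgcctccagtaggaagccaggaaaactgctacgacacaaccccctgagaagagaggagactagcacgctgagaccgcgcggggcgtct
The match, 118 bases before the start, is to the hexamers TGTGGT or TGCGGT read on either strand, which 18.6% of all promoters of this length hold.

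Among 38 limb and limb skeleton factors, 30 were tested, of which 17 were called higher and 3 lower (median log2 fold change 1.09, beside 0.03 over all genes), and 9 were higher in every fBM-MSC library. Dlx5, a homeobox factor of limb and bone, was at 9.09, 17.8 and 44.3 TPM in fBM-MSCs and at 0.27 and 5.97 in vBM-MSCs. It was absent from A-MSCs and reached at most 0.16 TPM in P-MSCs. Dlx6, its neighbour, ranged from 0.27 to 5.04 TPM in fBM-MSCs and reached 0.21 elsewhere. Neither Dlx5 nor Dlx6 was called against vBM-MSCs (adjusted p = 0.111 and 0.151). Dlx6 overlaps Dlx6os1 on the opposite strand, and reads of the 2 cannot be told apart there. Irx3, an Iroquois factor of the proximal limb, was at 10.8, 10.8 and 28.3 TPM in fBM-MSCs and at 1.58 and 9.39 in vBM-MSCs, the nearest value being that of replicate 2 of the vBM-MSCs. Msx1, a factor of undifferentiated limb mesenchyme, ranged from 3.68 to 5.34 against 0.93 to 3.43 TPM (log2 fold change 1.08 ± 0.30 (SE), adjusted p = 0.014), a call lost without replicate 2 of the fBM-MSCs (adjusted p = 0.0673). Alx4, a factor of the front edge of the limb bud, was called at a low level of 0.30 to 0.39 TPM against at most 0.10, and Sall1 was a member too low to be tested.

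Being called against the mean of the other tissues is not the same as exceeding each of them. Tbx4, the hindlimb and lung T-box factor, was at 1.39, 1.07 and 0.96 TPM in fBM-MSCs and at most 0.07 in vBM-MSCs and A-MSCs, but at 5.73, 6.98 and 8.77 in P-MSCs. Its log2 fold change was 6.85 against vBM-MSCs and 5.64 against A-MSCs, and -2.54 against P-MSCs (adjusted p = 0.00271). Tbx5, a factor of forelimb, heart and lung, ranged from 0.21 to 1.31 TPM in fBM-MSCs and was at 2.04, 2.41 and 3.43 in P-MSCs. It had no count in vBM-MSCs or A-MSCs. Isl1, which acts at the start of hindlimb growth, was at 1.49, 3.05 and 0.42 TPM in fBM-MSCs, at 0 in vBM-MSCs and A-MSCs and at 0.75, 0.30 and 0.25 in P-MSCs, and overlapped with the last. The general limb mesenchyme factors Prrx1 (log2 fold change -0.30), Twist1 (0.60) and Gli3 (0.23) were not called, and Tbx3 (-0.55) and Lhx9 (-1.93) were among the 3 called lower. Neither call was stable. That of Tbx3 was lost without replicate 1 or 2 of the fBM-MSCs, and that of Lhx9 with a replicate block (adjusted p = 0.0637) and when any 1 of 8 libraries was left out, its log2 fold change being -0.006 without replicate 1 of the vBM-MSCs. With limma on log2(TPM + 1), Tbx4 and Tbx5 were no longer called (log2 fold changes 0.07 and 0.12 on that scale).

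The Hox genes differed in direction by their position in the clusters. Most tested genes of the posterior groups were called higher in fBM-MSCs and most of the anterior and middle groups lower, with exceptions in both. Of the 16 genes of paralogue groups 9 to 13, 9 were tested, of which 8 were called higher and none lower, and 8 of the 16 were higher in every fBM-MSC library (median log2 fold change of those tested 3.9, or 3.26 with tissues at 0 set to their floor). Hoxc10 (chr15:102966796-102971898, 2 exons) was measured at 19.3, 19.4 and 19.6 TPM in fBM-MSCs, the replicates differing by under 2%. It was at 0.59 and 3.55 TPM in vBM-MSCs, 0.69, 0.93 and 1.84 in A-MSCs and 0 in P-MSCs. All 3 fBM-MSC libraries lay above the highest other one, a vBM-MSC library, by more than 5-fold (log2 fold change 3.32 ± 0.67 (SE), adjusted p = 0.0129 against vBM-MSCs). Hoxa10 was at 19.1, 21.2 and 28.6 TPM in fBM-MSCs, with a highest other value of 6.29 in an A-MSC library (log2 fold change 5.02 ± 0.62 (SE), adjusted p = 9.48e-05). Hoxa11, which patterns the middle limb segment, was at 4.84, 3.67 and 7.89 TPM and at most 2.42 elsewhere. It was called against P-MSCs, but not against vBM-MSCs or A-MSCs (adjusted p = 0.0782 and 0.106). Hoxc13 was at 6.89, 9.57 and 5.35 TPM in fBM-MSCs, at 0.49 and 1.23 in vBM-MSCs, 3.12, 2.35 and 4.09 in A-MSCs and at 0 in P-MSCs. Hoxa9 and Hoxd9 also passed without overlap, and Hoxc11 and Hoxc12 did so at levels too low to be tested. Hoxc9 (4.92 to 5.85 TPM) and Hoxd10 (0.42 to 1.71) were called but overlapped with vBM-MSCs and A-MSCs, with log2 fold changes of 0.09 and 0.35 against vBM-MSCs and -0.30 and 0.82 against A-MSCs, none of them called, so that both calls rest on P-MSCs. In the main contrast the call of Hoxd10 was lost with a replicate block (adjusted p = 0.0559) and with limma (0.143). Reads of Hoxa11 and of its antisense gene Hoxa11os, also a member, cannot be told apart where the 2 overlap. Hoxb9, at 3.28, 1.13 and 0 TPM in fBM-MSCs and 12.3 and 16 in vBM-MSCs, was the gene of the list not called.

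Most of the anterior and middle Hox genes tested were called in the other direction. Of 23 genes of paralogue groups 1 to 8, 17 were tested, of which 3 were called higher and 11 lower (median -2.59), and 11 of the 23 were lower in every fBM-MSC library. Hoxb2 (chr11:96351632-96354016, 2 exons) was measured at 1.61, 0.99 and 1.3 TPM in fBM-MSCs and at 9.63 to 18.7 TPM over the 8 other libraries. The other tissues were alike at this gene, with log2 fold changes of -3.29, -3.61 and -3.37 against vBM-MSCs, A-MSCs and P-MSCs. Hoxb5 was at 0, 0.19 and 0 TPM in fBM-MSCs and at 1.23, 4.45 and 10.4 (lowest, median, highest) in the others (log2 fold change -5.85 ± 0.74 (SE), adjusted p = 0.000108). Hoxb6 was at 1.67, 0.13 and 0.11 TPM against 5.71, 14.5 and 25.8. Hoxb7 was at 9.66, 0.90 and 0.34 TPM in replicates 1 to 3, replicate 1 standing about 10-fold or more above the others, yet all 3 lay under the lowest other value of 15.1. Its call was lost without replicate 2 of the fBM-MSCs (adjusted p = 0.0665). The call of Hoxb3, also a member, was lost when any of several libraries was left out (adjusted p = 0.0538 to 0.125). In the HoxA cluster Hoxa2 (log2 fold change -5.15 ± 0.85 (SE), adjusted p = 0.000647), Hoxa3, Hoxa4 and Hoxa5 were members, and the annotated span of Hoxa3 overlaps Hoxa4, Hoxa5 and Hoxa6 on the same strand. Hoxa7 (log2 fold change 0.03) was not called, and Hoxc4 was called lower (-0.99) without being a member, a call lost when any 1 of 6 libraries was left out (adjusted p = 0.052 to 0.108). The antisense gene Hoxb5os (chr11:96291037-96306910) was at 0.23, 0 and 0 TPM in fBM-MSCs and at 2.8 to 16.3 elsewhere. It overlaps Hoxb5 and Hoxb6 on the other strand, and reads of the 3 cannot be told apart where they overlap.

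Hoxc8, Hoxc6 and Hoxd8 are the 3 that were called higher, and none was a member. Hoxc8 was at 3.41, 2.1 and 2.51 TPM in fBM-MSCs, 19.2 and 17.8 in vBM-MSCs and 18.5, 13.1 and 9.65 in A-MSCs, and had no count in P-MSCs. It was thus lower in fBM-MSCs than in vBM-MSCs (log2 fold change -2.76, adjusted p = 0.000847) and A-MSCs (-2.43, 0.000218), the call resting on P-MSCs, where the HoxC and HoxD genes from group 8 on ran from 0 to 0.19 TPM. With limma on log2(TPM + 1), the direction of Hoxc8 in the main contrast turned and it was called lower (-0.85 on that scale, adjusted p = 0.00341), Hoxc6 was not called (0.45, adjusted p = 0.0532) and Hoxd8 was still called higher (0.53, adjusted p = 0.016). Summed over the list, the genes of groups 9 to 13 came to 70.3 to 78.4 TPM in fBM-MSCs, 19.6 to 38 in vBM-MSCs, 14.9 to 30 in A-MSCs and 2.29 to 3.87 in P-MSCs. Those of groups 1 to 8 came to 28.8 to 40.8 TPM in fBM-MSCs, 117 to 181 in vBM-MSCs, 101 to 124 in A-MSCs and 99.8 to 109 in P-MSCs, so that the fBM-MSC range lay above all others in the former and under all others in the latter.

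**Figure D2:**
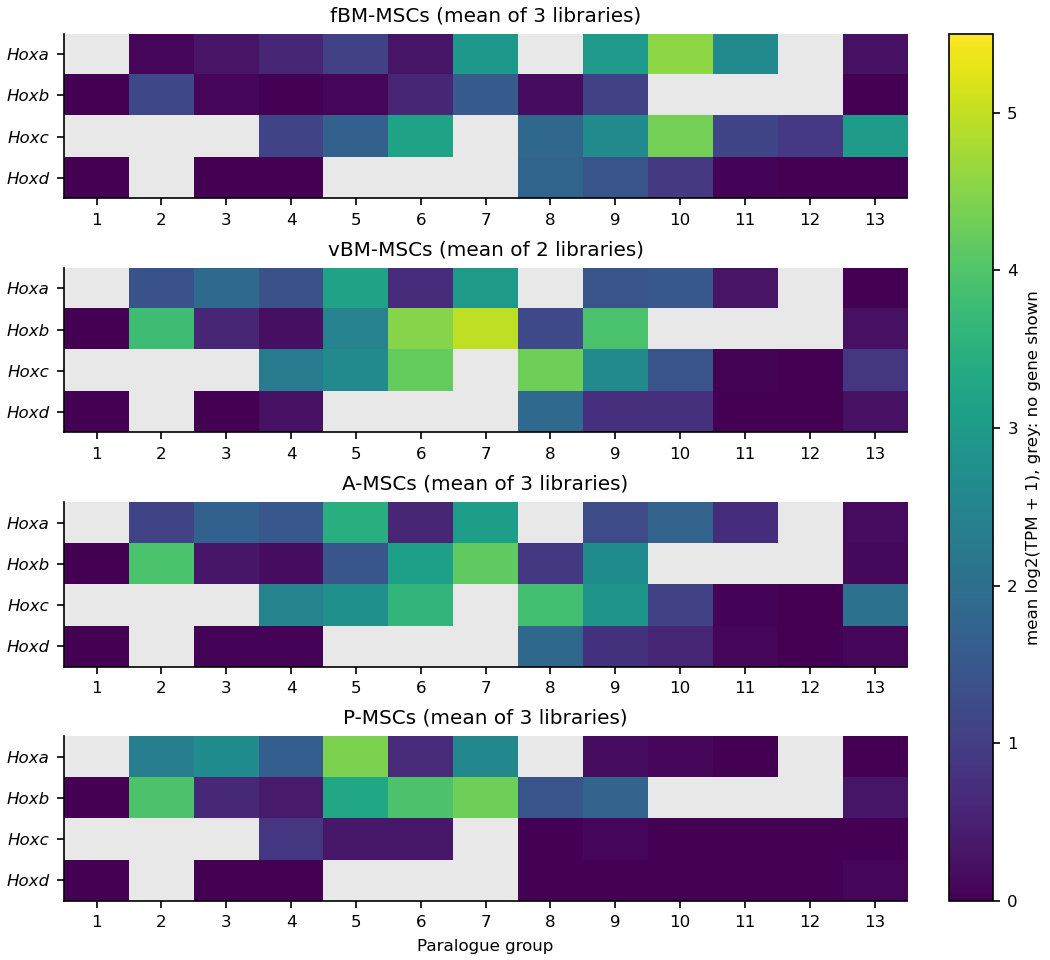
Mean log2(TPM + 1) of listed Hox genes in each tissue, with the 4 clusters as rows and paralogue groups 1 to 13 as columns (grey: no gene shown). In fBM-MSCs the highest cells are Hoxa10 and Hoxc10 and the HoxB row is low, whereas Hoxb2, Hoxb6 and Hoxb7 are high in each of the 3 other tissues.

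Most genes of the list of osteoblast factors and bone matrix were called higher in fBM-MSCs against the mean of the other tissues, and fewer of them exceeded every other library. Of 33 genes, 27 were tested, of which 24 were called higher and 2 lower (median log2 fold change 4.26), and 14 of the 33 were higher in every fBM-MSC library. Spp1 (chr5:104435111-104441053, 6 to 8 exons), encoding osteopontin, was at 26353, 38359.9 and 84015 TPM in fBM-MSCs, replicates 1 to 3. It was at 1562 and 9037 TPM in vBM-MSCs, 384, 353 and 352 in A-MSCs and 284, 160.5 and 220.1 in P-MSCs. The nearest library, replicate 2 of the vBM-MSCs, was nearly 3-fold under the lowest fBM-MSC library (log2 fold change 6.09 ± 0.44 (SE), adjusted p = 3.78e-06 in the main contrast, 3.34 against vBM-MSCs). Dmp1, an acidic protein of osteocytes, was at 40.4, 96.7 and 159 TPM in fBM-MSCs, 0.80 and 17.2 in vBM-MSCs and at most 0.20 elsewhere. Bglap and Bglap2, the osteocalcin genes, were at 155, 302 and 1065 and at 224, 490.4 and 1673 TPM in fBM-MSCs. In vBM-MSCs they were at 4.1 and 73.7 and at 4.97 and 111 TPM. The 2 genes and Bglap3 are near-identical copies between which RSEM divides reads by its model, so the split among them is uncertain.

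Transcription factors of the lineage were members as well. Runx2, the factor that commits cells to the osteoblast lineage, was at 5.4, 7.89 and 12.5 TPM in fBM-MSCs and at 2.3, 2.95 and 4.54 (lowest, median, highest) in the others (log2 fold change 1.43 ± 0.24 (SE), adjusted p = 0.000682). Sp7, which acts after Runx2, was at 10.1, 23.7 and 64.3 TPM in fBM-MSCs, 2.62 and 9.71 in vBM-MSCs and at most 0.16 in A-MSCs and P-MSCs, so that the groups did not overlap but replicate 1 of the fBM-MSCs lay close to replicate 2 of the vBM-MSCs. Dlx3, a homeobox factor of bone and skin, was at 7.7, 5.88 and 7.74 TPM in fBM-MSCs and at most 1.38 TPM in the other libraries. Ank and Enpp1, which set the extracellular pyrophosphate that limits mineral growth, were at 438, 437 and 671 and at 32.8, 21.5 and 36.6 TPM, above vBM-MSC values of 92.6 and 218 and of 5.57 and 16.8. Ibsp, bone sialoprotein, and Alpl, the tissue-nonspecific alkaline phosphatase, were called in the main contrast (log2 fold changes 10.48 and 7.92) but overlapped with vBM-MSCs. Ibsp was at 218, 286 and 1009.7 TPM in fBM-MSCs and 16.9 and 321 in vBM-MSCs, and Alpl at 35.6, 27.6 and 173 and 11.6 and 76.9. Neither was called against vBM-MSCs (adjusted p = 0.244 and 0.561). Atf4 (-0.72) and Cthrc1 (-1.31) were the 2 called lower, and both calls were lost without replicate 1 or replicate 2 of the fBM-MSCs.

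Replicates differed in these genes within each marrow. Summed over the 33 genes, they came to 31134 to 96777 TPM in fBM-MSCs, 5844 to 15172 in vBM-MSCs, 3745 to 3974 in A-MSCs and 2623 to 2702 in P-MSCs. In each of the genes named above that were called higher, replicate 3 was the highest fBM-MSC library and replicate 2 the higher vBM-MSC library. The number called higher stayed between 21 and 25 when each library was left out in turn. The Spp1 promoter carried a summit 2 bases after the start in the fBM-MSC list alone (fold enrichment 6.25), and the Ibsp promoter one in the fBM-MSC list alone as well (5.52), though Ibsp was not a member. Other bone genes went otherwise. Dmp1 had a summit in the vBM-MSC list alone (5.52), and Bglap, Sp7 and Alpl had none in any list. Runx2 was alike in fBM-MSCs, vBM-MSCs, A-MSCs and P-MSCs (7.73, 6.99, 7.36 and 7.72). The Spp1 promoter, chosen after its values were seen, is shown with its match to the RUNX core in capitals, 128 bases before the start (chr5:104434861-104435110 of GRCm38, plus strand, RefSeq).
Spp1: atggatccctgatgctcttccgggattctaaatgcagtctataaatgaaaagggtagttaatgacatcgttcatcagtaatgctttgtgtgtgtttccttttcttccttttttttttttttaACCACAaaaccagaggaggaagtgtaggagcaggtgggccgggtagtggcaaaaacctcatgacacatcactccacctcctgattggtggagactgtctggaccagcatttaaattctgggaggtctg
The match reads ACCACA, the reverse strand of TGTGGT. Of the promoters of tested members 16.2% of the higher and 16.3% of the lower hold a RUNX core in these 250 bases, beside 17.2% of the promoters of all tested genes.

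Secreted signals of bone were next. Of 24 BMP ligands and antagonists, 21 were tested, of which 9 were called higher and 3 lower. The 5 higher members were ligands. Bmp3 (chr5:98854415-98884053, 3 exons), an atypical ligand that opposes BMP signalling in bone, was at 5.27, 7.04 and 24.8 TPM in fBM-MSCs, 0 and 0.89 in vBM-MSCs, 0 in A-MSCs and at most 0.04 in P-MSCs. Its groups lay far apart (log2 fold change 8.99 ± 1.0 (SE), adjusted p = 0.000118). Bmp2, a strong inducer of bone, was at 10.4, 15.7 and 24.2 TPM in fBM-MSCs and at 1.02 and 7.68 in vBM-MSCs (log2 fold change 4.12 ± 0.50 (SE), adjusted p = 8.26e-05). Bmp5 (4.24 to 17.7 TPM), Bmp7 (0.11 to 2.29) and Bmp8a (4.4 to 16.9) also lay above every other library, the highest other value of Bmp7 being 0.09 TPM. Against vBM-MSCs, Bmp5 and Bmp7 were not called (adjusted p = 0.151 and 0.118). The 2 lower members were extracellular modulators, Bmper (log2 fold change -1.78 ± 0.16 (SE), adjusted p = 1.18e-05) and Fstl1 (-0.67), while Fst, the activin antagonist follistatin, was called lower (-1.43) but overlapped with P-MSCs. Grem1, an antagonist, was called higher (1.19) and ranged from 103 to 171 TPM, overlapping with P-MSCs.

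Of 25 Wnt ligands and secreted inhibitors, 19 were tested, of which 13 were called higher and 2 lower (median log2 fold change 2.26). Dkk1, an inhibitor that binds the Wnt co-receptors, was at 0.74, 2.51 and 15.5 TPM in fBM-MSCs and at 0 in the other libraries but 1, a vBM-MSC library with 0.10. It was at least 385-fold higher than in A-MSCs, or at least 92.8-fold without replicate 3 of the fBM-MSCs. Wnt5a (30.9 to 42.3 TPM), Wnt9a (6.21 to 11.1) and Wnt10b (1.23 to 1.91) were the ligands higher in every fBM-MSC library, and Sost, the inhibitor made by osteocytes, was a member too low to be tested. Wnt10b, known to favour bone over fat, was also 1 of the members whose promoter had a summit in the fBM-MSC list alone. Wif1 and Sfrp4, both inhibitors, were shared with vertebral marrow. Wif1 was at 5.78, 7.1 and 32.9 TPM in fBM-MSCs, 10.1 and 24.5 in vBM-MSCs and 0 in the other 2 tissues, and its log2 fold change against vBM-MSCs was -0.09 ± 0.75 (SE). Sfrp1 and Frzb, of the same inhibitor family as Sfrp4, were the 2 called lower, the call of Frzb being lost when any 1 of 9 libraries was left out (adjusted p = 0.0526 to 0.162). Sfrp1 was at 0.78, 1.2 and 1.85 TPM, against 21 and 26.8 in vBM-MSCs and 11.5, 20.1 and 20.2 in A-MSCs, but overlapped with P-MSCs.

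Of 13 IGF genes, 11 were tested, of which 3 were called higher and 2 lower, beside 21.0% and 18.7% of all tested genes. Igf1 was at 20.4, 6.11 and 4.78 TPM in fBM-MSCs and 185 and 67 in vBM-MSCs, while P-MSCs overlapped with it (log2 fold change -1.95 ± 0.48 (SE), adjusted p = 0.0071). Igfbp3 was higher in every fBM-MSC library (8.86 to 19.4 against 0.58 to 8.31 TPM). Igf1r, the receptor, was lower in every one (3.63 to 4.15 against 4.33 to 7.88). Igfbp2 split the fBM-MSC libraries, at 530.4, 637 and 9.85 TPM in replicates 1 to 3, and was not called (adjusted p = 0.918). Among 19 genes of the blood stem cell niche, 16 were tested, of which 6 were called higher and 3 lower. Il7, the cytokine of early lymphoid cells, was at 31.1, 25.4 and 16.6 TPM in fBM-MSCs and at 1.74, 2.38 and 9.69 in the others, without overlap (log2 fold change 3.0 ± 0.28 (SE), adjusted p = 1.65e-05). Pdgfra, a receptor used to mark marrow stroma, was at 0.27, 0.76 and 0.75 TPM against 1.81, 6.29 and 7.93, and Jag1, a Notch ligand, at 2.32, 3.79 and 6.61 against 8.11, 11 and 14.5. Both were lower in every fBM-MSC library. Cxcl12 (log2 fold change -0.48, adjusted p = 0.0565) and Kitl (0.57, 0.138), the 2 best known niche factors, were not called.

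Of 24 chemokine ligands, 12 were tested, of which 7 were called higher and none lower. Cxcl14 (chr13:56288643-56296551, 4 exons) was at 57.6, 44.4 and 69.5 TPM in fBM-MSCs. It was at 0.71 and 9.43 TPM in vBM-MSCs, 10.4, 9.11 and 12.1 in A-MSCs and 1.0, 0.87 and 0.29 in P-MSCs, so that the lowest fBM-MSC library exceeded the highest other one more than 3-fold (log2 fold change 4.13 ± 0.46 (SE), adjusted p = 5.14e-05). Cxcl16 and Cx3cl1, the 2 chemokines made as membrane proteins, were both members. Cxcl16 was at 31, 31 and 27.4 TPM against 1.94, 6.09 and 13.5, and Cx3cl1 at 38, 74 and 96 against 5.41, 8.32 and 26.2. Of 13 genes that regulate osteoclasts, 12 were tested, of which 1 was called higher and 6 lower. Il6 was at 10.4, 6.72 and 3.83 TPM in fBM-MSCs and at 20.6, 93.7 and 165 in the others (log2 fold change -3.33 ± 0.29 (SE), adjusted p = 1.07e-05). Ptgs2, cyclooxygenase 2, was at 148, 111 and 83.7 TPM against 372, 499 and 551, and Sema3a and Efnb2 were also lower in every fBM-MSC library. Sema3a was so only barely, at 5.76 TPM against 5.77 in an A-MSC library. Against A-MSCs it was not called (log2 fold change -0.60, adjusted p = 0.115). The decoy receptor Tnfrsf11b and Csf1 were not called in the main contrast (log2 fold changes 0.19 and 0.03), and Tnfsf11, encoding RANKL, ran from 0 to 1.61 TPM. Il34, the other ligand of the Csf1 receptor, was the 1 gene called higher (3.16), at a level shared with vBM-MSCs (0.14 against that tissue). Of 24 interferon-stimulated genes, 18 were tested, of which 5 were called higher and none lower, beside 21.0% and 18.7% of all tested genes. Ifit3 (5.92 to 8.92 against 0.19 to 2.98 TPM), Ifi44, Rtp4 and Stat2 were members. None of these 4 was called against vBM-MSCs (adjusted p = 0.0811, 0.285, 0.377 and 0.202).

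The widest gap among the higher members belonged to Atp6v0d2 (chr4:19876838-19922566, 8 exons), a subunit of the vacuolar proton pump best known from osteoclasts. It was measured at 20.9, 23 and 15 TPM in fBM-MSCs, and at 0.11 and 0.83 TPM in vBM-MSCs. It had no count in A-MSCs and P-MSCs, which puts it at least 1102-fold and 1071-fold higher than there (log2 fold change 5.43 ± 0.71 (SE), adjusted p = 0.00355 against vBM-MSCs). C5ar1 (chr7:16246743-16259540, 2 to 3 exons), the receptor of complement C5a on myeloid cells, was measured at 9.98, 9.63 and 11.7 TPM in fBM-MSCs. It was at 0.07 and 0.73 TPM in vBM-MSCs, 0.49, 0 and 0.41 in A-MSCs and 0.28, 0.51 and 0 in P-MSCs. Every fBM-MSC value was over 10 times the highest other one (log2 fold change 5.09 ± 0.79 (SE), adjusted p = 0.000445). Lgals3, galectin 3, abundant in macrophages and also made by bone cells, was at 1009, 863 and 1116 TPM in fBM-MSCs and at 77.7, 143 and 218 (lowest, median, highest) in the others (log2 fold change 2.86 ± 0.15 (SE), adjusted p = 6.98e-07). Mmp9, a gelatinase of osteoclasts and myeloid cells, was at 5.51, 5.64 and 8.87 TPM, with a highest other value of 2.61 in an A-MSC library. Against A-MSCs, Mmp9 was not called (adjusted p = 0.112).

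Since these genes are also known from blood-derived cells, the marker lists of such cells are given beside them. Of 16 macrophage and monocyte genes, 11 were under 1 TPM in every library, 5 were tested, of which 2 were called higher and 1 lower. Adgre1, encoding F4/80, had no count in any fBM-MSC library. Csf1r was at 0.89, 0.60 and 0.73 TPM in fBM-MSCs and was called lower (-1.65). Cd68, a lysosomal protein, was higher in every fBM-MSC library (13.1, 18.5 and 12.3 against 0.87, 5.02 and 7.38 TPM), and Lyz2 was called higher (1.75) at 22.2 to 36.4 TPM with a log2 fold change of -0.03 against vBM-MSCs. Summed, the list came to 40.7 to 52.7 TPM in fBM-MSCs, 25 to 46 in vBM-MSCs, 18.4 to 27.6 in A-MSCs and 27.7 to 32.1 in P-MSCs. Of 8 osteoclast genes, 5 were tested, of which 3 were called higher (Atp6v0d2, Mmp9 and Ctsk) and none lower. The defining gene Acp5 ran from 0.21 to 0.77 TPM and Calcr from 0 to 0.26 in fBM-MSCs, and Dcstamp had no count there. The osteoclast list summed to 209.5 to 326 TPM in fBM-MSCs, 141 to 257 in vBM-MSCs, 63.9 to 72.8 in A-MSCs and 60 to 70.5 in P-MSCs, most of it Ctsk, which cultured fibroblasts express as well (179.7 to 301 TPM in fBM-MSCs). Of 25 genes of other blood cells, 22 were under 1 TPM in every library, and Cd34 was the 1 called of 2 tested. That list summed to 13.5 to 88.4 TPM in fBM-MSCs, 8.7 to 10.3 in vBM-MSCs, 5.48 to 17.8 in A-MSCs and 5.44 to 12.6 in P-MSCs, Cd34 making up most of it in fBM-MSCs. The part of such cells in the level of Atp6v0d2, C5ar1, Lgals3 or Mmp9 was not tested.

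Stmn2 (chr3:8509527-8561604, 5 exons), a microtubule-destabilising protein known from neurons, was measured at 136, 221 and 82.5 TPM in fBM-MSCs. It was at 5.9 and 14.8 TPM in vBM-MSCs, 1.97, 0.44 and 0 in A-MSCs and 1.84, 1.63 and 2.63 in P-MSCs. The lowest fBM-MSC library exceeded the highest other one more than 5-fold (log2 fold change 5.89 ± 0.52 (SE), adjusted p = 1.16e-05). Syngr1 (chr15:80091334-80119501), a protein of synaptic-like vesicles, was at 21.9, 34.4 and 39.8 TPM in fBM-MSCs and at 0.12, 1.42 and 4.33 in the others (log2 fold change 4.51 ± 0.43 (SE), adjusted p = 1.9e-05). Slc5a7, Stmn2 and Prph, the neuronal filament protein peripherin and too low to be tested, are the members from the list of neuronal genes. Of 20 cholinergic and neuronal genes, 9 were tested, of which 5 were called higher and none lower (median 1.87, or 0.98 with tissues at 0 set to their floor), and 11 were under 1 TPM in every library. Chat, the enzyme that makes acetylcholine, and Slc18a3, its vesicular transporter, had no count in fBM-MSCs. Of 10 Schwann and glial genes, 3 were tested. S100b, which chondrocytes and fat cells also make, was called higher at 24.1, 18.8 and 56 TPM in fBM-MSCs and 6.47 and 17.3 in vBM-MSCs, and Mbp lower (-2.9). Sox10, the defining factor of glia, had no count in fBM-MSCs.

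The remaining genes of widest gap have varied roles. Rpl39l (chr16:10170228-10174911, 3 exons), a ribosomal protein paralogue, was at 28.5, 110.2 and 76.2 TPM in fBM-MSCs and at 0 to 5.24 in the others (log2 fold change 5.65 ± 0.59 (SE), adjusted p = 3.3e-05), and may share reads with its parent Rpl39. Lgr6 (chr1:134986353-135105276, 18 exons), a receptor of R-spondins, was at 20.4, 39.6 and 64.7 TPM against 0.10, 0.87 and 4.46 (log2 fold change 5.3 ± 0.42 (SE), adjusted p = 6.8e-06). Panx3 (chr9:37659902-37669222, 4 exons), a channel protein of osteoblasts and hypertrophic cartilage, was at 7.93, 7.61 and 24 TPM against 0 to 1.27 (log2 fold change 6.68 ± 0.78 (SE), adjusted p = 6.79e-05). Both resembled the bone genes above in that replicate 3 was the highest fBM-MSC library and replicate 2 the highest vBM-MSC library. Rhbdl2 (chr4:123787875-123829929, 7 to 8 exons), an intramembrane protease, was at 7.79, 11.6 and 11.9 TPM against 0 to 1.41 (log2 fold change 4.51 ± 0.70 (SE), adjusted p = 0.00044).

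**Figure D3:**
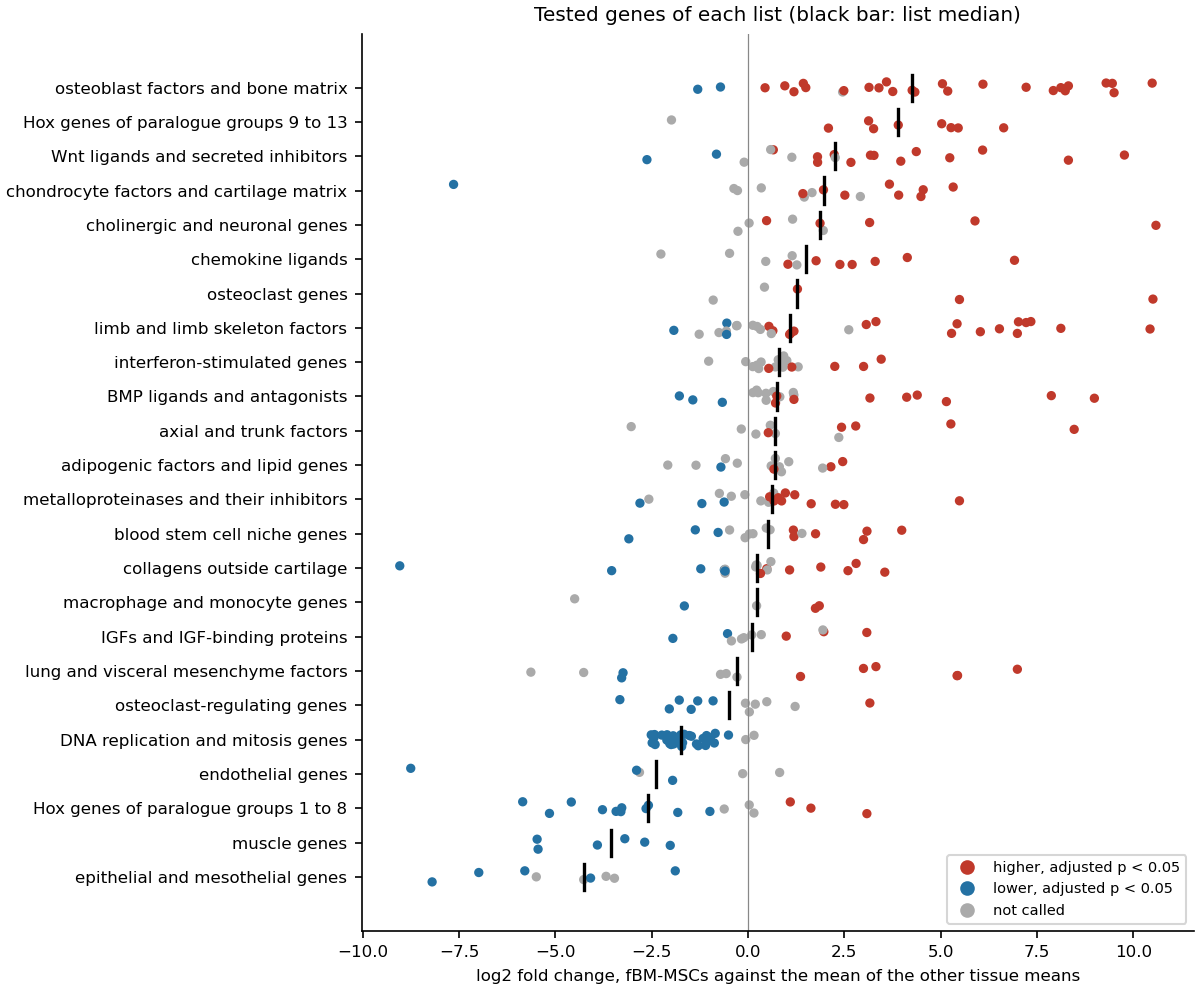
Log2 fold change of fBM-MSCs against the mean of the other tissue means (horizontal axis) for the tested genes of each list with at least 5 tested genes, 1 point per gene, coloured by the edgeR call, with a black bar at the list median. Bone genes (median 4.26) and Hox genes of groups 9 to 13 (3.90) lie at the top, and Hox genes of groups 1 to 8 (-2.59), muscle genes (-3.55) and epithelial and mesothelial genes (-4.27) at the bottom.

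Among the genes lower in fBM-MSCs, F3 and Tfpi had the widest gaps. F3 (chr3:121723537-121735052, 6 exons), tissue factor, which starts the extrinsic clotting pathway, was at 37.1, 34.4 and 21.4 TPM in fBM-MSCs. It was at 1008 and 435 TPM in vBM-MSCs, 889, 1005 and 931 in A-MSCs and 478, 541 and 549 in P-MSCs. The highest fBM-MSC value was over 10-fold under the lowest other one (log2 fold change -4.5 ± 0.32 (SE), adjusted p = 3.11e-06). Tfpi (chr2:84432860-84476775, 8 to 9 exons), the inhibitor of the same pathway, was at 5.11, 10.4 and 10.6 TPM in fBM-MSCs and 190.1 and 105 in vBM-MSCs. It was at 181, 165 and 134 TPM in A-MSCs and 194, 213 and 206 in P-MSCs. The starter and its inhibitor were thus both low against each tissue, with log2 fold changes of -4.54, -5.0 and -3.96 for F3 and -4.07, -4.09 and -4.34 for Tfpi against vBM-MSCs, A-MSCs and P-MSCs. A730020M07Rik (chr3:121634936-121646453), a gene without a known protein that is the tested neighbour of F3 on its upstream side and lies on the opposite strand, was at 1.53, 0.44 and 0 TPM in fBM-MSCs and at 8.67 to 47 in the others (log2 fold change -5.62 ± 0.74 (SE), adjusted p = 0.000142).

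Contractile genes were low in fBM-MSCs. Of 12 muscle genes, 6 were tested and all 6 were called lower (median log2 fold change -3.55), 5 of them in every fBM-MSC library. Acta2 (chr19:34240336-34255373, 9 exons), smooth muscle actin, was measured at 821, 809.8 and 702 TPM in fBM-MSCs. It was at 5771 and 4257 TPM in vBM-MSCs, 8429, 8453 and 8060.4 in A-MSCs and 2885, 3311 and 3244 in P-MSCs. The 3 replicates were close, and the gap to the nearest other library, a P-MSC one, was over 3-fold (log2 fold change -2.68 ± 0.14 (SE), adjusted p = 6.15e-07). Cnn1 (chr9:22099253-22109221, 7 exons), calponin 1, was at 11, 34 and 15.9 TPM in fBM-MSCs, 254 and 112 in vBM-MSCs, 579, 761 and 717 in A-MSCs and 193, 221 and 269 in P-MSCs. The fBM-MSC libraries lay well under all others (log2 fold change -3.91 ± 0.40 (SE), adjusted p = 2.88e-05). Lmod1 (chr1:135324813-135368065, 3 exons), leiomodin 1, which is not on the list and nucleates smooth muscle actin filaments, was at 0.34, 0.58 and 0.64 TPM against 3.92, 7.5 and 12.4 (log2 fold change -3.71 ± 0.25 (SE), adjusted p = 2.37e-06). Tagln, transgelin, was at 632, 514 and 352 TPM against 1338, 1755 and 3682, and Acta1, the skeletal muscle actin, at 19.3, 11.7 and 8.54 against 54.5, 757 and 1028, its lowest other value being that of replicate 2 of the vBM-MSCs. Myh11, the smooth muscle myosin, was at or under 0.10 TPM in fBM-MSCs, against 0.45, 4.72 and 8.38. Des, desmin, was called lower (-3.2) without being a member, since it was similarly low in vBM-MSCs (0.80 and 1.18 TPM, beside 1.28, 1.68 and 0.70). Myod1, Myf5 and Pax7, which define skeletal muscle precursors, had no count in any library.

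The promoters of several contractile genes differed in the ATAC-seq lists too, which hold 1 pooled list of peaks per tissue. The strongest summit within 1 kb of the Acta2 start had a fold enrichment of 9.93 in the fBM-MSC list, against 22.4, 31.3 and 22.8 in those of vBM-MSCs, A-MSCs and P-MSCs. At Tagln the values were 7.73 against 19.5, 26.5 and 16.6. At Myh11 they were 6.25 against 6.99, 16.9 and 10.7, thus close to vBM-MSCs, and Acta1 and Des had no summit in any list. At Cnn1, Lmod1 and Myl9, a myosin light chain of smooth muscle that was at 375, 401 and 472 TPM in fBM-MSCs and 1316, 1695 and 2009 in the others, the fBM-MSC list had no summit and the 3 other lists had at least 1. At Myl9 the summits lay 231, 260 and 123 bases before the start in vBM-MSCs, A-MSCs and P-MSCs. The Myl9 promoter (chr2:156775214-156775463 of GRCm38, plus strand, RefSeq), chosen after its values were seen, is shown because these summits lie in and beside it, with its CArG box in capitals, 161 bases before the start.
Myl9: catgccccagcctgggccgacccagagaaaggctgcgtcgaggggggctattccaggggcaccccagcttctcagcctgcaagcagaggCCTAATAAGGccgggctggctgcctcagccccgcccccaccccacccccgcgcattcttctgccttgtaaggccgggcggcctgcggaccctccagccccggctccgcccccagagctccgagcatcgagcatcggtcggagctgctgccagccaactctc
A CArG box, searched by its consensus of 10 bases, which reads the same on both strands, was found in these 250 bases of 2.62% of the promoters of tested lower members and in 0.425% of those of higher members, beside 1.21% of those of all tested genes and 1.47% of all promoters.

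Other genes of widest gap among the lower were a mixed set. Nppb (chr4:147985900-147987205, 3 exons), the precursor of brain natriuretic peptide, was at 1.86, 1.78 and 0.82 TPM in fBM-MSCs and at 11.6, 33.5 and 57.8 in the others (log2 fold change -4.37 ± 0.51 (SE), adjusted p = 6.72e-05). Slc1a6 (chr10:78780496-78814825, 10 exons), a glutamate transporter, was at 0.40, 0.20 and 0.62 TPM in fBM-MSCs, 175 and 99 in vBM-MSCs, 52.2, 61.2 and 63.5 in A-MSCs and 7.34, 5.29 and 6.54 in P-MSCs. Here the other tissues differed among themselves by over 10-fold and the vertebral marrow was the farthest from the femoral (log2 fold change -8.35 ± 0.41 (SE), adjusted p = 3.06e-06). Nkain4 (chr2:180934772-180954699), a partner of the sodium pump, was at 6.34, 2.46 and 0 TPM in fBM-MSCs, 565 and 193 in vBM-MSCs and 21.1 to 39.3 in the rest. Tgm2 (chr2:158116405-158146392, 13 exons), tissue transglutaminase, which cross-links matrix proteins, was at 11.2, 13.8 and 11.3 TPM in fBM-MSCs, 85 and 45.4 in vBM-MSCs and 231 to 332 in the rest (log2 fold change -3.83 ± 0.24 (SE), adjusted p = 1.32e-06). Hs6st2 (chrX:51386637-51681602), a heparan sulphate sulphotransferase, was at 9.34, 4.95 and 8.87 TPM against 36.4, 48.9 and 73.1. Serpinb6b (chr13:32965261-32979067), a protease inhibitor of a family with near-identical members, was at 3.57, 3.86 and 1.97 TPM against 13.9, 66.1 and 117. Zfp36 (chr7:28376784-28379228, 2 exons), tristetraprolin, which speeds the decay of cytokine mRNA and is an immediate early gene, was at 5.33, 5.85 and 5.47 TPM against 20.9, 26.4 and 30.1, with the smallest error of the 15 (log2 fold change -2.22 ± 0.13 (SE), adjusted p = 8.94e-07).

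Genes of DNA replication and mitosis were low in fBM-MSCs against the mean of the others, and most of the difference was from the non-marrow tissues. Of 35 genes, all tested, 33 were called lower and none higher (median log2 fold change -1.75), while 5 were lower in every fBM-MSC library. Summed over the list, the genes came to 536 to 619 TPM in fBM-MSCs, 544 to 581 in vBM-MSCs, 1569 to 1587 in A-MSCs and 2784 to 2954 in P-MSCs, so that the 2 marrow tissues overlapped. Ccnb1, cyclin B1, was at 7.68, 17.5 and 12 TPM in fBM-MSCs, 19.1 and 23.3 in vBM-MSCs, 111, 104 and 87.9 in A-MSCs and 180.4, 160.3 and 184 in P-MSCs. Its log2 fold change was -0.73 against vBM-MSCs, -3.1 against A-MSCs and -3.7 against P-MSCs, the first not called (adjusted p = 0.0551). Rrm1, the large subunit of ribonucleotide reductase, differed from vertebral marrow as well, at 40.4, 41.1 and 25.8 TPM against 122 and 78.9 in vBM-MSCs (log2 fold change -1.47 ± 0.22 (SE), adjusted p = 0.0019). Rrm2, its partner subunit, was called higher in that comparison (log2 fold change 1.04 against vBM-MSCs, adjusted p = 0.00561). How much of the difference between fBM-MSCs and the non-marrow tissues in other genes goes with the rate of growth in culture was not tested.

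Of 31 chondrocyte genes, 15 were tested, of which 8 were called higher and 1 lower (median 1.96). Comp, a cartilage matrix protein, was at 36.8, 7.65 and 88.1 TPM in fBM-MSCs and 109 and 97.6 in vBM-MSCs, and Col10a1, the collagen of hypertrophic cartilage, at 2.27, 1.35 and 7.75 and 4.51 and 13.8. Sox9, the factor that defines cartilage, was not called (log2 fold change 0.34), Acan was at or under 0.07 TPM in fBM-MSCs, and 2 genes of the list were members, Cilp2 and Ucma, the latter too low to be tested. Of 23 adipogenic genes, 14 were tested, of which 3 were called higher and 1 lower, and none was a member. Pparg, the factor that defines fat cells, ranged from 4.67 to 12.7 TPM (log2 fold change 0.71 ± 0.31 (SE), adjusted p = 0.0885). Of 29 collagens outside cartilage, 19 were tested, of which 7 were called higher and 5 lower. Col16a1 was above every other library (19.7 to 23 against 2.57 to 15.7 TPM), and the basement membrane collagens Col4a2 (28.8 to 50.9 against 51.4 to 101) and Col4a6 were lower in every fBM-MSC library. Col6a1 was at 20.3, 7.21 and 35 TPM in fBM-MSCs and 79.6 and 102 in vBM-MSCs (log2 fold change -2.06, adjusted p = 0.0145, or 0.0555 without replicate 1 of the vBM-MSCs). Of 23 metalloproteinases and inhibitors, 20 were tested, of which 10 were called higher and 3 lower, with Mmp9 higher and Mmp17 and Adamts12 lower in every fBM-MSC library.

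Positional factors of other body parts were checked in the same way. Of 21 axial and trunk factors, 11 were tested, of which 5 were called higher and none lower. Pax1, a factor of the vertebral column, was at 0.28, 2.48 and 0.54 TPM in fBM-MSCs and 17.9 and 13.9 in vBM-MSCs (log2 fold change -3.83 ± 0.81 (SE), adjusted p = 0.0116 against vBM-MSCs), a call lost without replicate 1 of the vBM-MSCs (adjusted p = 0.0845). Of 18 lung and visceral factors, 13 were tested, of which 6 were called higher and 2 lower. Foxf1, the defining forkhead factor of visceral mesenchyme, was lower in every fBM-MSC library (0.14, 0.93 and 1.12 against 1.46, 9.48 and 21.5 TPM), and Barx1, a homeobox factor of stomach and jaw, was higher (13.1, 1.89 and 13.7 against 0, 0.08 and 1.49 TPM). Lists of endothelial and of epithelial genes were counted as well. Of 11 endothelial genes, 6 were tested, of which 3 were called lower and none higher, with a sum of 1.21 to 2.25 TPM in fBM-MSCs, 1.65 to 5.74 in vBM-MSCs, 7.21 to 65.1 in A-MSCs and 4.33 to 10.1 in P-MSCs. Of 14 epithelial and mesothelial genes, 9 were tested, of which 5 were called lower and none higher (median -4.27, or -3.75 with tissues at 0 set to their floor), with a sum of 2.18 to 11.8 TPM in fBM-MSCs, 9.58 to 13 in vBM-MSCs, 90.3 to 101 in A-MSCs and 54.8 to 64 in P-MSCs. These calls were not stable, since on leaving out 1 library the number called lower ranged from 0 to 2 in the endothelial list, with 0 without replicate 3 of the fBM-MSCs, replicate 2 of the vBM-MSCs or replicate 1 of the P-MSCs, and from 2 to 5 in the epithelial list, with 2 without replicate 2 of the vBM-MSCs. With limma on log2(TPM + 1), 2 and 9 genes were called lower. Cdh5, Krt8 and Wt1, which define such cells, were at or under 0.01 TPM in every fBM-MSC library. No gene of these 2 lists was a member.

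Taken tissue by tissue, edgeR called 5.24% of all tested genes higher and 7.56% lower in fBM-MSCs than in vBM-MSCs, 20.6% and 20.3% than in A-MSCs, and 24.7% and 23.0% than in P-MSCs. The 3 comparisons share the fBM-MSC libraries, and that with vBM-MSCs rests on 2 libraries. Of the 947 tested higher members, 373 were called against vBM-MSCs, 755 against A-MSCs and 828 against P-MSCs. Of the 1137 lower ones, 531, 1055 and 928 were. Pitx1 differed from the 3 tissues by 7.57, 7.28 and 7.16 on the log2 scale (vBM-MSCs, A-MSCs and P-MSCs), each with an SE above 1, whereas Spp1 differed by 3.34, 7.02 and 7.93, and Sp7 by 2.49 (adjusted p = 0.0612) from vBM-MSCs and 8.56 from P-MSCs. Against vBM-MSCs the number called higher fell from 655 to 206 without replicate 1 of the vBM-MSCs and to 393 without replicate 2 of the fBM-MSCs, and the number called lower from 946 to 404 without replicate 1 of the vBM-MSCs.

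**Figure D4:**
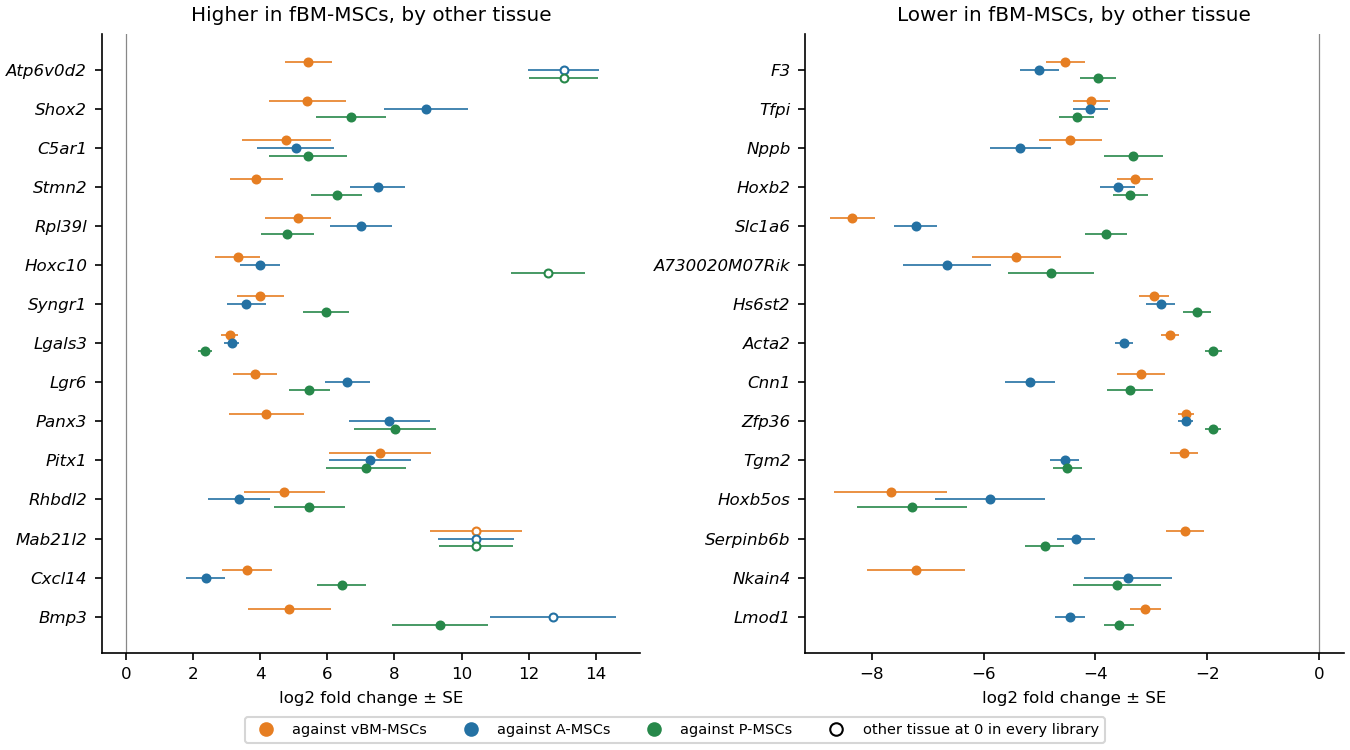
Log2 fold change with its SE (horizontal axis) of the 15 higher and 15 lower genes of widest gap against each other tissue, 1 colour per tissue compared with fBM-MSCs. Open points mark a tissue with no count in any library, where the fitted value depends on the prior count of the fit (Atp6v0d2, Hoxc10, Mab21l2 and Bmp3). All points lie on 1 side of 0 in each panel.

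Along the chromosomes, members of a direction stood next to each other in several known clusters, counting tested genes in order and naming runs chosen after their values were seen. Higher and lower members made up 7.57% and 9.09% of all tested genes, so some neighbours arise by number alone. Whether runs exceeded that was not tested. The longest run was of 7 lower members, Hoxb8, Hoxb7, Hoxb5os, Hoxb6, Hoxb5, Hoxb3 and Hoxb2 (chr11:96281905-96354016). On chromosome 6, 4 lower members (Hoxa2, Hoxa4, Hoxa3 and Hoxa5, chr6:52162417-52213067) and 4 higher ones (Hoxa9, Hoxa10, Hoxa11 and Hoxa11os, chr6:52223097-52249769) lay in the same HoxA cluster, so that the change of direction fell between Hoxa5 and Hoxa9. Dlx6os1, Dlx6 and Dlx5 (chr6:6820543-6882068) and Dlx3 with Dlx4 (chr11:95120117-95145801) formed higher runs, as did the aldo-keto reductases Akr1b3, Akr1b8 and Akr1b10, which are similar in sequence. Lrba, Mab21l2 and Dclk2 were 3 higher neighbours, Lrba and Mab21l2 being the overlapping pair described above. Other runs were as long as those of HoxA. Among the higher these included Lef1, Hadh, Cyp2u1 and Sgms2, and Aqp11, Pak1, Myo7a and Capn5. Among the lower, Cyr61, Ddah1, Bcl10 and 2410004B18Rik formed such a run.

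The ATAC-seq lists were a readout that the choice of members did not use. Since replicates were pooled, no error between replicates can be given. The lists cover chromosomes 1 to 19. A promoter was counted as accessible where a summit with a −log10 q of at least 7 lay within 1 kb of a curated RefSeq start. Of 12057 tested genes with such a start, 64 had a summit in the fBM-MSC list alone (0.531%, exact 95% binomial interval 0.409 to 0.677). Of the 921 higher members, 19 did (2.06%, 1.25 to 3.2), and of the 1093 lower members 2 did (0.183%, 0.0222 to 0.659). A summit in the 3 other lists but not in the fBM-MSC list was found for 254 of all (2.11%, 1.86 to 2.38), 11 of the higher members (1.19%, 0.598 to 2.13) and 31 of the lower (2.84%, 1.94 to 4.0). With a −log10 q of at least 20, the share with a summit in the fBM-MSC list alone was 0.887% of all genes and 2.39% of the higher members, and the share with a summit in the 3 other lists but not in that one was 5.02% of all genes and 7.23% of the lower members. These intervals cover counting error over genes only, and genes are not independent. Most members did not differ in this way, as 72.9% of the higher and 88.0% of the lower had a summit in all 4 lists. In promoters with a summit in all 4, the log2 fold enrichment in fBM-MSCs minus the mean of the 3 others had a median of -0.19 over all genes, -0.16 over the higher members and -0.25 over the lower, the fBM-MSC list being generally the weaker.

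Several of the promoters that differed belonged to genes described above. C5ar1 and Mab21l2 are the 2 of the 15 higher genes of widest gap with a summit in the fBM-MSC list alone, and that at C5ar1 was the strongest of the 19 (fold enrichment 14.4, 128 bases after the downstream one of its annotated starts). Bglap2, Dlx3, Fgf1, Hoxa9, Hoxa11, Spp1 and Wnt10b were also among the 19, named here after their values were seen. Atp6v0d2 had a fold enrichment of 29.4 in the fBM-MSC list and 11.4 in that of vBM-MSCs and no summit in the others, and Dlx5 had 14, 7.36 and none. Pitx1, Slc5a7, Stmn2 and Bmp3 had no summit within 1 kb in any list, despite the gap in their transcripts, and at Shox2 the values were 9.56, 5.52, 5.89 and 8.83 in fBM-MSCs, vBM-MSCs, A-MSCs and P-MSCs. Among the lower genes of widest gap, Slc1a6, A730020M07Rik, Cnn1, Serpinb6b and Lmod1 lacked a summit in the fBM-MSC list alone. F3 kept one, at 11.8 against 15.8, 28.3 and 29.4, and Nppb had 6.62 against 6.99, 22.8 and 21.7.

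**Figure D5:**
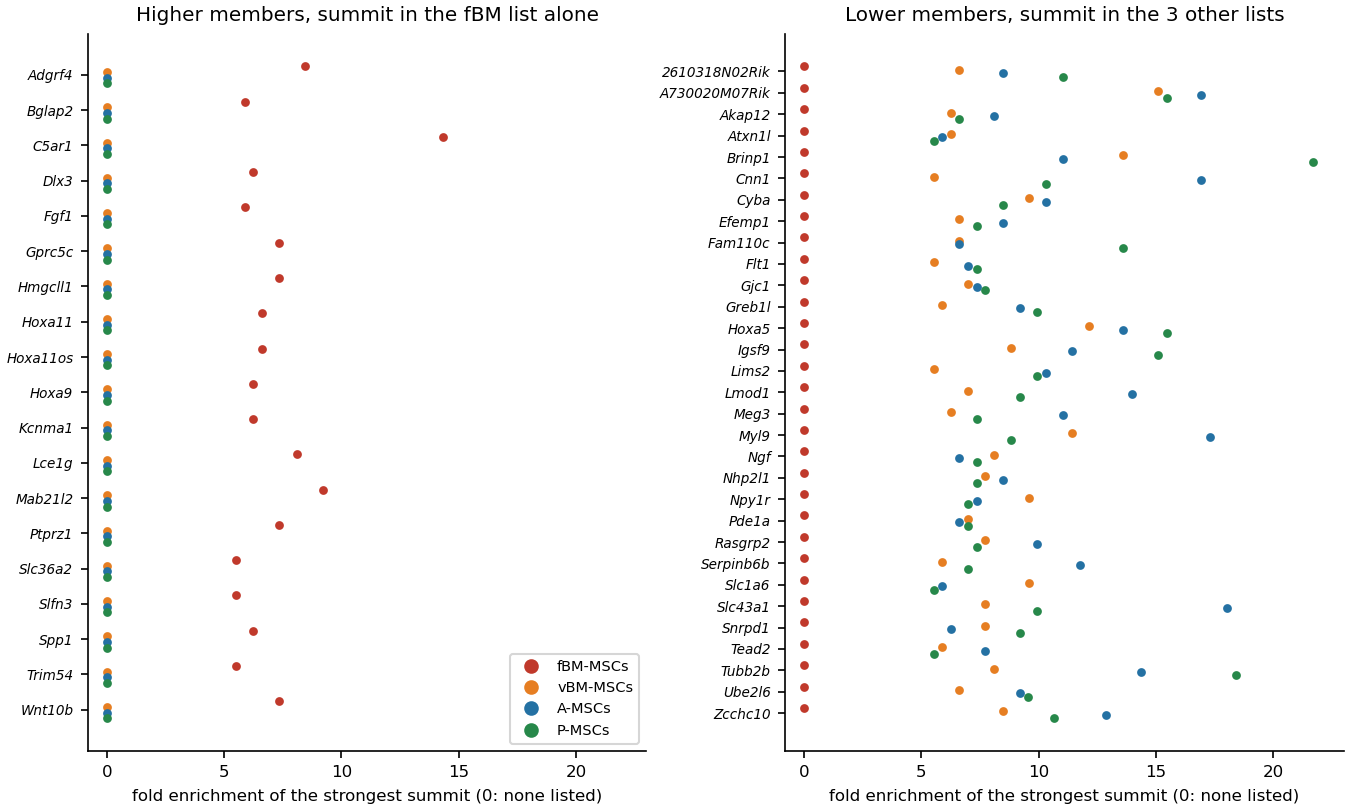
Fold enrichment of the strongest summit within 1 kb of the start (horizontal axis, 0 where none is listed) in each tissue's pooled list, for the 19 higher members with a summit in the fBM-MSC list alone and the 31 lower members with one in the 3 other lists. On the left the fBM-MSC points run from 5.52 (Slc36a2) to 14.4 (C5ar1), and on the right the other tissues run from 5.52 to 21.7 (Brinp1 in P-MSCs).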

How the data were processed

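RNA-seq libraries were prepared from cultured MSCs by Smart-seq2, which does not keep the strand, and ATAC-seq libraries by the FAST-ATAC protocol. The authors aligned RNA-seq reads to mm10 with STAR and quantified genes with RSEM, and deposited an expected count, a TPM and an FPKM per gene and library. The FPKM and length columns were not used. vBM-MSC replicate 3 is not analysed here. ATAC-seq reads had been trimmed (Trim Galore), aligned (Bowtie, unique hits), cleared of duplicates (Picard) and offset for the cut of Tn5, and the authors called peaks with MACS2 on the pooled libraries of each tissue. The deposited peak lists give a fold enrichment over a background set for the whole genome (the local estimate was switched off), a −log10 q-value and the summit's offset, a score in bases from the peak start. Tool versions are not given in the sources used here.

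Expected counts were rounded and fitted with edgeR 4.0.16 in R 4.3.3 (TMM, quasi-likelihood test, two-sided, tissue as the only term), for genes that reached a CPM of 1 in 2 or more libraries. Contrasts were fBM-MSCs minus the mean of the 3 other tissue means, on the log scale, and minus each tissue, with Benjamini-Hochberg adjusted p under 0.05 over all tested genes as the call. The SE of a log2 fold change is its size divided by the square root of F. A tissue without a count was set to 3 counts over its libraries to give a bound. The fit was tested on simulated data. Libraries held 19569650 to 40517739 expected counts, so that a low TPM of a short transcript rests on few reads. No 2 libraries were identical. Promoters, gene positions and sequences came from RefSeq on GRCm38.p6, which is the assembly of mm10.

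The genes named were the first 15 members in each direction by gap, the 4 markers, up to 4 called genes of each list with the largest change, and genes on which a list's description turns, some of which are not reported here. The members and the 29 lists were chosen with earlier results of these data known. The tissues came from the same 3 mice, but whether a replicate number marks 1 mouse across tissues is not given in the sources used here. The deviations of same-numbered libraries from their group means correlated at -0.03 to 0.15 over 15 pairs. The highest was 0.152, between replicates 1 of the fBM-MSCs and vBM-MSCs, and the next 0.098. The main fit therefore has no block, and counts with a block are given below. Alternatives were another scaling, other filters on low counts, DESeq2 1.42.0, limma 3.58.1 on log2(TPM + 1) and log2(TPM + 0.1), a replicate block, leaving out each library, and a −log10 q of 20 for the peaks. Tables were made with Python 3.11.15, pandas 2.3.3 and scipy 1.17.1.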

Additional observations from a re-analysis of the deposited data

How the results depend on the processing

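Against the mean of the other tissues, 2632 genes were called higher and 2338 lower, and under scaling by relative log expression, other filters, DESeq2, limma and the mean of the 8 libraries each count stayed within 1.5 times. Against vBM-MSCs, DESeq2 called 1006 higher in place of 655. With a −log10 q of at least 20, the share with a summit in the fBM-MSC list alone rose to 0.887% of all genes and 2.39% of the higher members. The share with a summit in the 3 other lists but not in that one rose to 5.02% of all genes and 7.23% of the lower members. The cause was not tested. With a replicate block, 2521 and 2311 genes were called higher and lower against the mean, 527 and 799 against vBM-MSCs, 2476 and 2513 against A-MSCs and 2990 and 2884 against P-MSCs, and 7 of 11 libraries were closest to a library of their own number, a hint from the data that numbers may be shared between tissues and not a statement of the design.

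When each library was left out in turn, the counts of higher and lower genes ranged from 2049 to 2771 and from 1871 to 2404 against the mean, from 206 to 933 and from 404 to 1028 against vBM-MSCs, from 2113 to 2751 and from 2117 to 2701 against A-MSCs, and from 2548 to 3227 and from 2402 to 3032 against P-MSCs. The lowest counts against vBM-MSCs, 206 and 404, came without replicate 1 of the vBM-MSCs, which leaves that tissue 1 library, assumed to vary like the other groups. Genes higher in every fBM-MSC library ranged from 1096 to 1833 and genes lower in every one from 1165 to 1550, a rise that follows from fewer libraries to exceed. For the 119 genes named by rule, 15 alternatives gave 1774 values, the other 11 lacking an adjusted p or falling under the filter. In these values 98 genes kept their call, 21 lost it under at least 1 alternative and none changed direction. Of 64 other called genes of the text, looked at after seeing the data under the same alternatives (953 values, 7 lacking), 46 kept their call, 17 lost it under at least 1, and Hoxc8 changed direction, to -0.85 with limma on log2(TPM + 1). Counts within 10 of the lists, an alternative added after seeing the data, ranged on leaving out a library from 21 to 25 higher for bone genes, 12 to 19 for limb factors, 7 to 8 for Hox genes 9 to 13, 9 to 12 lower for Hox genes 1 to 8, 0 to 2 lower for endothelial genes and 2 to 5 lower for epithelial and mesothelial genes. Depth limits genes with few counts, and 2 vBM-MSC libraries limit every comparison with that tissue.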
